A study of Mus musculus with 12 samples.

Results

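The 10 heat shock chaperone genes described here were listed by name and make up 10 of the 32498 named genes in the deposited tables. They are the cytosolic HSP70 genes Hspa1a, Hspa1b and Hspa8, the HSP110 gene Hsph1, the HSP90 gene Hsp90aa1, the HSP40 gene Dnajb1, the small heat shock protein gene Hspb1, the mitochondrial chaperonin genes Hspd1 and Hspe1, and the co-chaperone gene Bag3. All 10 were found and passed the filter on low values. RNA-seq was performed on tongues labelled as tumor and tumor-associated tissue from C57BL/6 mice bought at 5 weeks of age. All mice drank water with the carcinogen 4NQO (4-nitroquinoline-1-oxide) at 100 µg/mL for 16 weeks, and either gallic acid (GA), a plant polyphenol, at 100 mg/kg or the same volume of vehicle was gavaged 5 times per week from week 4 until sacrifice. The vehicle held DMSO, methyl cellulose and Tween-20. There were 6 vehicle and 6 GA libraries, with 18040153 to 21770340 recovered reads (median 21129618.5) in the vehicle group and 21237167 to 25192490 (median 23684395.5) in the GA group. Nothing in the labels ties a library to a named animal, so p-values measure the spread between these libraries.

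Heat shock proteins hold unfolded proteins and help them fold. HSP70 binds short exposed stretches, J-domain proteins such as Dnajb1 deliver clients to it, and exchange factors such as Hsph1 and Bag3 let clients go. HSP90 finishes the folding of many kinases and receptors, small heat shock proteins hold clients without using ATP, and HSP60 with its lid HSP10 forms the folding cage of mitochondria. Some of these genes are switched on by heat, toxic metals or tissue injury through the transcription factor HSF1, and the rough handling of tissue at dissection can also raise them. Here Hspa1a, Hspa1b, Dnajb1, Hsph1, Hsp90aa1, Hspb1 and Bag3 (7 genes) were treated as inducible and Hspa8, Hspd1 and Hspe1 (3 genes) as constitutive, a division that is one of degree, since heat also raises Hspd1 and Hspe1 in many cells. Fos, an immediate early gene that rises quickly after a stimulus, was used as a sign of handling.

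Libraries also differed in ways other than the treatment, and some of these were unevenly divided between the groups. Reads on Y-linked genes were present in 4 of 6 vehicle libraries (1 to 4) and 1 of 6 GA libraries (1). The gastric lipase gene Lipf, a marker of tongue glands, exceeded 1000 FPKM in vehicle libraries 3 and 5 and in GA library 2. Oral epithelium and skeletal muscle markers were present in all 12 libraries. The summed scaled FPKM of 10 epithelial markers ran from 18980 to 43020 with vehicle and from 15810 to 28850 with GA. The summed scaled FPKM of 12 skeletal muscle markers ran from 1458 to 12730 with vehicle and from 2133 to 9708 with GA.

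Hspa1a and Hspa1b encode nearly the same protein and lie 9951 bases apart on the minus strand of chromosome 17 in GRCm38 (Hspa1b chr17:34956436-34959238, Hspa1a chr17:34969190-34972156). Hspd1 (chr1:55077835-55088243, minus strand) and Hspe1 (chr1:55088132-55091307, plus strand) are divergent genes whose annotated ends overlap by 112 bases. The RefSeq promoter windows (GRCm38.p6, 250 bases before to 50 bases after the start) were searched for heat shock elements, the sites HSF1 binds. These are alternating copies of GAA and TTC with 2 bases between them. The pair motifs searched were GAANNTTC and TTCNNGAA, which read the same on both strands and can overlap. Windows were found for 8 of the 10 genes, the exceptions being Hspa8 and Hsp90aa1, and 7 of the 8 genes (87.5%) held a pair, where 17% of 27025 genes in the same table did. A run of at least 3 alternating units was found in 3 of the 8 genes, Hspd1, Hspe1 and Hsph1, where 0.662% of all genes held such a run. The runs of Hspd1 and Hspe1 are the same bases read on opposite strands, and the Hspa1a and Hspa1b windows are nearly identical. These genes are thus not independent in either count. The run of Hsph1 and the only pair of Bag3 lie after the annotated start. Dnajb1 had 0 pairs in either of its windows. The 250 bases before the start are given for the 2 HSP70 genes, for Hspe1, whose window shares 285 bases with the second Hspd1 window on the other strand, and for Hspb1, the most abundant gene of the group, with matched pairs in capitals.
Hspa1a: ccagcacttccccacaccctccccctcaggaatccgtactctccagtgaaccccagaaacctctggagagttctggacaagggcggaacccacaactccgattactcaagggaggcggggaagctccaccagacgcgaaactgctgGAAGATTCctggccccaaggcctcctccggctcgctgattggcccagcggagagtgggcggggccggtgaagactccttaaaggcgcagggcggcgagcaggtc
Hspa1b: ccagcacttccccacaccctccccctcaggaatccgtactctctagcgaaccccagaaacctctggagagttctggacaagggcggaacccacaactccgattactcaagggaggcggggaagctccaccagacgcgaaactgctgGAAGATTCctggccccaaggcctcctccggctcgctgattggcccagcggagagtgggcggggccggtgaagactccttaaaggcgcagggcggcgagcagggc
Hspe1: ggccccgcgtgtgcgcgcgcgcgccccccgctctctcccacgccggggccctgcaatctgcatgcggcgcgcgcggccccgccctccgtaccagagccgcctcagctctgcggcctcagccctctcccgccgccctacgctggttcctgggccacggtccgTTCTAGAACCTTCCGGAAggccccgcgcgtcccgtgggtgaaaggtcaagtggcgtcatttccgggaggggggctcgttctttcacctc
Hspb1: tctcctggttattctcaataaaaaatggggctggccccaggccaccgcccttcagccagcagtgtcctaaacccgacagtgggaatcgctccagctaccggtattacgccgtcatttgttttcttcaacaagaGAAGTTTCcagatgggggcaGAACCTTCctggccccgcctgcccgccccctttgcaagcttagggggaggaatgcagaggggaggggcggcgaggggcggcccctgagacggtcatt
They lie at chr17:34972157-34972406 (minus strand), chr17:34959239-34959488 (minus strand), chr1:55087898-55088147 (plus strand) and chr5:135887669-135887918 (plus strand), in the order shown. Over the whole 300-base windows Hspa1a and Hspa1b differed at 4 positions (98.7% identity), counted from 1 at the first base shown and given as the Hspa1a base, the position and the Hspa1b base. These were C44T, T47C, T249G and C276T, of which 3 fall in the stretch shown. Both carry the same pair at positions 147 to 154, which begins at -104 relative to the annotated start. In Hspe1 the 3 overlapping pairs run from position 162 to 179, a run of 4 units. A match is a description of letters, and no binding was measured here.

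Likeness between genes also limits how far each value can be assigned, because the authors counted uniquely mapped reads. Of the 100-base stretches in Hspa1b transcripts of GENCODE release M21, 49.9% also occur in Hspa1a. For Hspa1a, 56.5% occur in another gene. Shared stretches made up 44% for Hspb1 (mostly the pseudogene Hsp25-ps1), 38% for Hsp90aa1, 28.5% for Hspa8, 23.9% for Hspd1 and 11% for Hspe1. For Dnajb1, Hsph1 and Bag3 it was 0 stretches. A read lying wholly in a shared stretch may map to both places and go uncounted, so levels of the first 7 may be understated by an unknown amount. In addition 19% of the exon bases of Hspa1a overlap Gm20481 on the other strand, and whether counting used strand is not given in the sources used here.

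The members spanned a wide range of levels in this tissue, in FPKM scaled between libraries, a measure per length and per library. Hspb1, which is abundant in stratified epithelia and muscle, was the highest with a mean of 852.8 over 12 libraries. Hspa8, the HSP70 that cells make without stress, followed with 257.8, and the ranges of these 2 genes did not overlap each other or the next gene. Hspd1 (79.9), Hsp90aa1 (65.7), Hspa1b (61.8) and Hspe1 (56.1) came next. These neighbours were not separable, since Hspd1 exceeded Hsp90aa1 in 10 of 12 libraries, Hsp90aa1 exceeded Hspa1b in 8 and Hspa1b exceeded Hspe1 in 5. Bag3 (42.5), Dnajb1 (33.2), Hspa1a (16.3) and Hsph1 (6.58) were lower. Bag3 was below Hspe1 in 12 of 12 libraries and above Dnajb1 in 10 of 12. Dnajb1 exceeded Hspa1a, and Hspa1a exceeded Hsph1, in 12 of 12 libraries.

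No member was called between GA and vehicle. Calls required an adjusted p (Benjamini-Hochberg, over all genes) under 0.1 together with a log2 fold change of 0.58 or more in either direction. The test was limma on log2(scaled FPKM + 0.1), on which changes of weakly expressed genes come out too small. Among the members 0 of 10 were called, as were 0 of the 16847 genes tested (0%). At an unadjusted p below 0.05 there were 0 of 10 members, against 371 genes (2.2%). Groups did not overlap for 0 of 10 members, against 10 genes (0.0594%). Of the members 8 had a higher and 2 a lower mean log2 level with GA (median log2 fold change 0.13), where 8666 of all genes were higher and 8181 lower with a median of 0.0065. The largest of the 10 differences by p belonged to Hspa8.

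**Figure D1:**
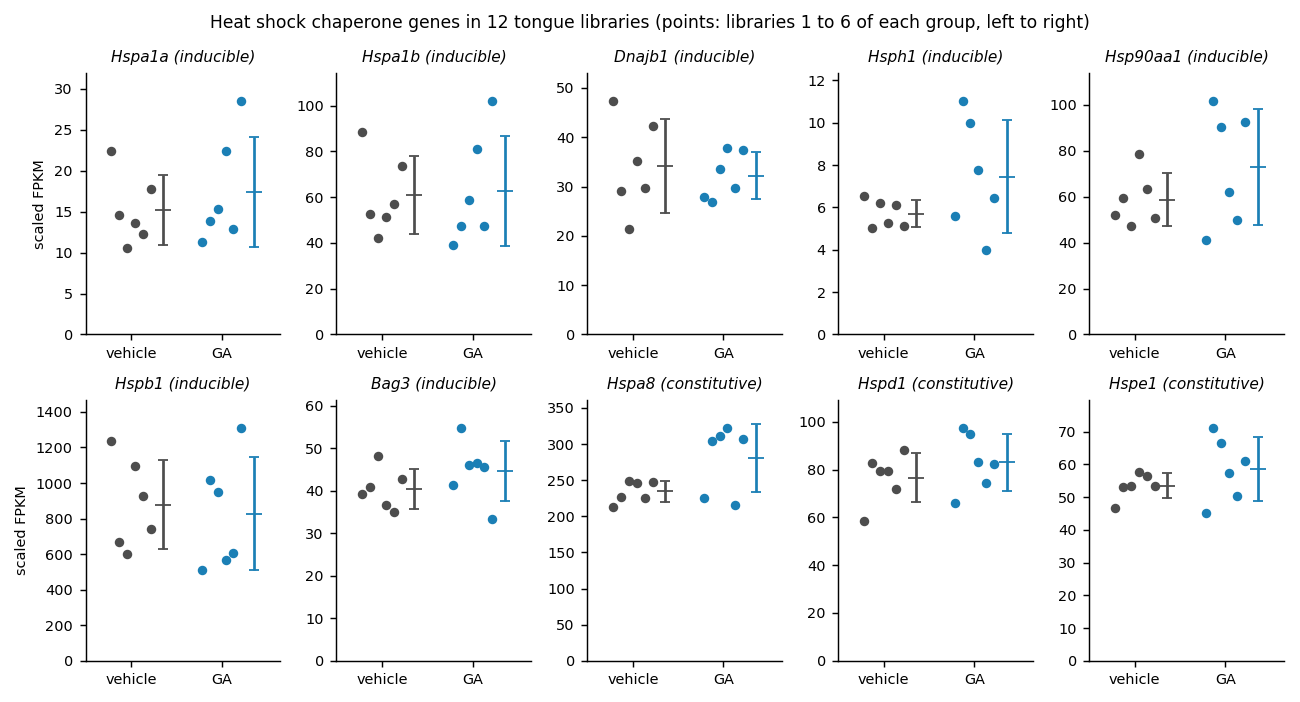
Scaled FPKM (vertical axes, starting at 0) of the 10 members in vehicle (grey) and GA (blue) libraries. Points are libraries 1 to 6 of each group from left to right, and the bars beside them are the mean and SD. The groups overlap for all 10 genes, and GA libraries 1 and 5 sit with the vehicle libraries for Hspa8.

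Hspa1a and Hspa1b, the stress-inducible HSP70 genes, did not separate the groups. In the 6 vehicle libraries Hspa1a had a lowest value of 10.6, a median of 14.1 and a highest value of 22.4 scaled FPKM. In the 6 GA libraries the corresponding values were 11.3, 14.6 and 28.5. The mean was 15.2 ± 4.29 (SD, n = 6) with vehicle and 17.4 ± 6.68 with GA, a log2 fold change of 0.16 (SE 0.24, 95% interval -0.365 to 0.68, adjusted p = 0.9993 in limma). Hspa1b ranged from 42.1 to 88.5 (median 55) with vehicle and from 39.2 to 101.9 (median 53.2) with GA. Its log2 fold change was 8.3e-05 (SE 0.25, 95% interval -0.53 to 0.53). Both genes were highest in GA library 6, and vehicle library 1 was the highest of its group. Of the 6 GA libraries, 3 were above and 3 below the vehicle median for each gene.

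Dnajb1, the J-domain partner of HSP70, had a mean of 34.2 ± 9.48 with vehicle and 32.2 ± 4.79 with GA. Vehicle values ran from 21.4 to 47.3 (median 32.5) and enclosed the GA range of 26.8 to 37.9 (median 31.6). Its log2 fold change was -0.05 (SE 0.18, exact permutation p = 0.801).

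Hsph1, an HSP110 that acts as an exchange factor for HSP70, was low and more spread with GA. Vehicle libraries lay between 5.03 and 6.53 (median 5.68), while GA libraries ran from 3.97 to 11 (median 7.09). GA libraries 2 (11), 3 (9.99) and 4 (7.76) were above every vehicle library, and GA library 5 (3.97) was below every vehicle library. The log2 fold change was 0.31 (SE 0.22, exact permutation p = 0.217).

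Hsp90aa1, the inducible HSP90, showed a similar spread. Its values were 47.2 to 78.8 (median 55.7) with vehicle and 41 to 101.6 (median 76.2) with GA. GA libraries 2, 3 and 6 exceeded every vehicle library and GA library 1 was the lowest of all 12. The log2 fold change was 0.25 (SE 0.23, exact permutation p = 0.331). It was 0.14 without GA library 2, 0.40 without GA library 1, 0.10 without the 3 libraries with high Lipf and 0.093 with a covariate for whether a library held Y-linked reads (the Y-linked read covariate). With only the libraries lacking Y-linked reads it was 0.43, and with a covariate for neutrophil markers it was also 0.43.

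Hspb1 ran from 599.3 to 1237 (median 836.1) with vehicle and from 509.2 to 1312 (median 777.8) with GA. The lowest library was GA library 1 and the highest GA library 6. The log2 fold change was -0.13 (SE 0.28), with a 95% interval of -0.73 to 0.47. Bag3, an exchange factor that also steers HSP70 clients to autophagy in muscle, lay between 34.9 and 48.1 (median 40.1) with vehicle and between 33.3 and 54.9 (median 45.7) with GA. Although 5 of 6 GA libraries were above the vehicle median of Bag3, GA library 6 was the lowest of all 12. Its log2 fold change was 0.13 (SE 0.12, exact permutation p = 0.279).

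Among the constitutive genes, Hspa8 had the smallest p of the members. Vehicle values were tight, with a lowest value of 213.5, a median of 236.3 and a highest value of 249.1. GA libraries 2, 3, 4 and 6 lay between 303.9 and 322.9, above every vehicle library, whereas GA libraries 1 and 5 were at 226 and 215.7, within the vehicle range. These last 2 libraries also had the fewest reads of their group (21237167 and 21333977), and the part of depth in this was not tested. The mean was 235 ± 14.9 with vehicle and 281 ± 47.3 with GA (n = 6 and 6), a log2 fold change of 0.25 (SE 0.13, 95% interval -0.033 to 0.52). Neither limma (p = 0.0789, adjusted p = 0.9993) nor the exact permutation test (p = 0.0541) passed its threshold. When only the 2 vehicle and 5 GA libraries lacking Y-linked reads were kept, the log2 fold change of Hspa8 was 0.30. Without the 3 libraries with high Lipf it was 0.23, and with the Y-linked read covariate in all 12 libraries it was 0.17.

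Hspd1 and Hspe1, HSP60 and its lid HSP10, overlapped between the groups. Hspd1 lay between 58.7 and 88.4 (median 79.4) with vehicle and between 65.9 and 97.7 (median 82.9) with GA. Its log2 fold change was 0.11 (SE 0.13). Hspe1 lay between 46.7 and 57.6 (median 53.5) with vehicle and between 45.3 and 71.3 (median 59.2) with GA, a log2 fold change of 0.12 (SE 0.11). With the Y-linked read covariate these differences were 0.0097 and 0.016. With only the libraries lacking Y-linked reads they were 0.11 and 0.15. The 95% intervals of Hspd1, Hspe1, Hspa8, Bag3, Hspa1b and Dnajb1 stayed within 0.58 in both directions. Those of Hspa1a, Hsph1 and Hsp90aa1 extended past 0.58 and that of Hspb1 past -0.58, so for these 4 genes the precision of 12 libraries still allows a difference as large as a call requires.

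**Figure D2:**
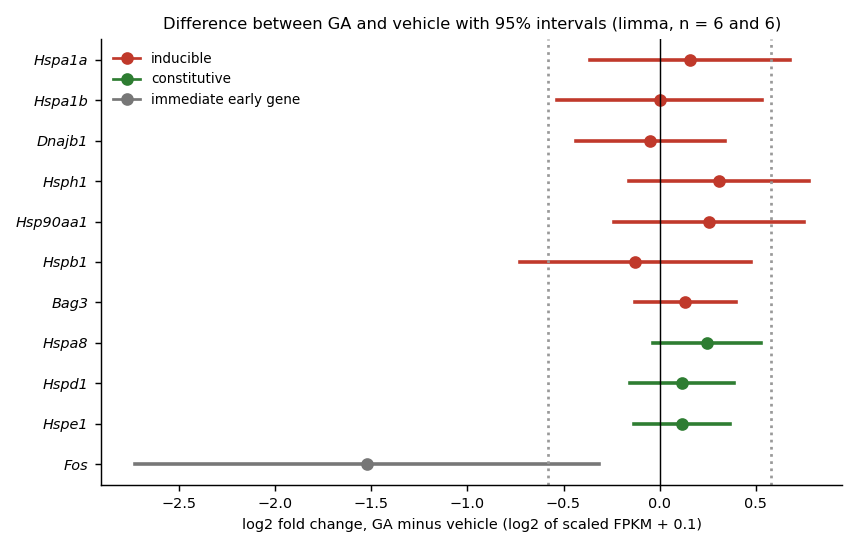
Log2 fold change of GA minus vehicle (horizontal axis) for the 7 inducible members (red), the 3 constitutive members (green) and Fos (grey). Points are limma estimates, lines are 95% intervals, and dotted lines mark 0.58 in either direction. The intervals of all 10 members include 0, with Hspa8 closest to leaving it, while Fos sits at -1.52.

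Within groups most inducible members had a larger spread than the constitutive ones, a description with no test across genes. The SD of the log2 level within groups had a median of 0.43 over the 7 inducible genes, from 0.20 for Bag3 to 0.49 for Hspb1. Over the 3 constitutive genes it had a median of 0.19, from 0.19 to 0.21. For comparison, the median was 0.39 over all tested genes and 0.29 over the 11789 with a mean log2 level of at least that of 1 FPKM. The ratio of the highest to the lowest of 12 libraries was 2.69 for Hspa1a, 2.60 for Hspa1b and 2.77 for Hsph1, and 1.51 for Hspa8, 1.57 for Hspe1 and 1.67 for Hspd1. Bag3 thus sat with the constitutive genes in its spread.

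Inducible and constitutive relatives were then compared within each library. Hspa1a stood at 4.29% to 10.5% of Hspa8 with vehicle and 4.59% to 9.31% with GA. Hspa1b stood at 16.9% to 41.5% of Hspa8 with vehicle and 15.6% to 33.2% with GA. The log2 difference of Hspa1b minus Hspa8 was lower with GA by a mean of -0.25 (SE 0.24, exact permutation p = 0.333), and that of Hspa1a minus Hspa8 by -0.09 (SE 0.24, exact permutation p = 0.708). Hsp90aa1, against its constitutive relative Hsp90ab1 (502 scaled FPKM with vehicle and 554 with GA), stood at 9.33% to 15.4% with vehicle and 8.72% to 17.8% with GA. That log2 difference was higher with GA by 0.13 (SE 0.21, exact permutation p = 0.537). After adjustment over the 3 pairs each p was 0.708. The share of these genes made by the inducible relative was thus not shown to differ between groups.

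Fos had 6.51 to 34 scaled FPKM (median 13.6) in vehicle libraries and 1.59 to 17 (median 3.81) in GA libraries. Its log2 fold change was -1.52 (SE 0.56, exact permutation p = 0.0368), 5 of 6 GA libraries were under the median of vehicle, and its adjusted p was 0.9993 in limma. No member was shown to follow it across the 12 libraries, where the pooled r also holds the difference between groups. Pearson's r with Fos on the log2 scale ran from -0.37 for Bag3 to 0.56 for Hspb1, and 0 of 10 members had an adjusted p below 0.05 (permutation test, lowest adjusted p = 0.585, and 0.447 for Spearman's rho). Hspa1a and Hspa1b had an r of -0.10 and -0.02. Without the 2 libraries farthest from the median of Fos, vehicle library 4 and GA library 5, the r of Hspb1 was 0.44. GA library 6 had the highest Hspa1b (101.9) at 8.03 scaled FPKM of Fos, and vehicle library 4 had the highest Fos (34) with 51.5 scaled FPKM of Hspa1b, below the vehicle median.

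Taken group by group, Hsp90aa1 moved with Fos in the vehicle libraries and was not shown to do so in the GA libraries. In the 6 vehicle libraries its r was 0.97 (rho 0.94, exact permutation p = 0.00278, adjusted p = 0.0278 over the 10 members). In the 6 GA libraries r was 0.73 (exact permutation p = 0.107, adjusted p = 0.330). With both genes centred on their group means, r was 0.78 over 12 libraries (permutation test within groups, adjusted p = 0.0448), whereas the pooled r without centring was 0.39 (adjusted p = 0.794). Leaving out 1 library kept this centred r between 0.71 and 0.91, but its adjusted p passed 0.05 for 9 of the 12 libraries left out, reaching 0.208 without vehicle library 4. For the other members the centred r with Fos ran from -0.22 for Bag3 to 0.63 for Hspe1, with Hspb1 at 0.61. The adjusted p of Hspe1 and of Hspb1 was 0.181 in the same permutation test. Against the mean log2 level of the other immediate early genes listed, Hsp90aa1 had a centred r of 0.84 (adjusted p = 0.0138). That adjusted p was 0.0648 without GA library 4 and 0.0521 without GA library 5. Over the same list and uncentred, 0 of 10 members had an adjusted p below 0.05 (lowest 0.150, for Hspb1 with r = 0.70).

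**Figure D3:**
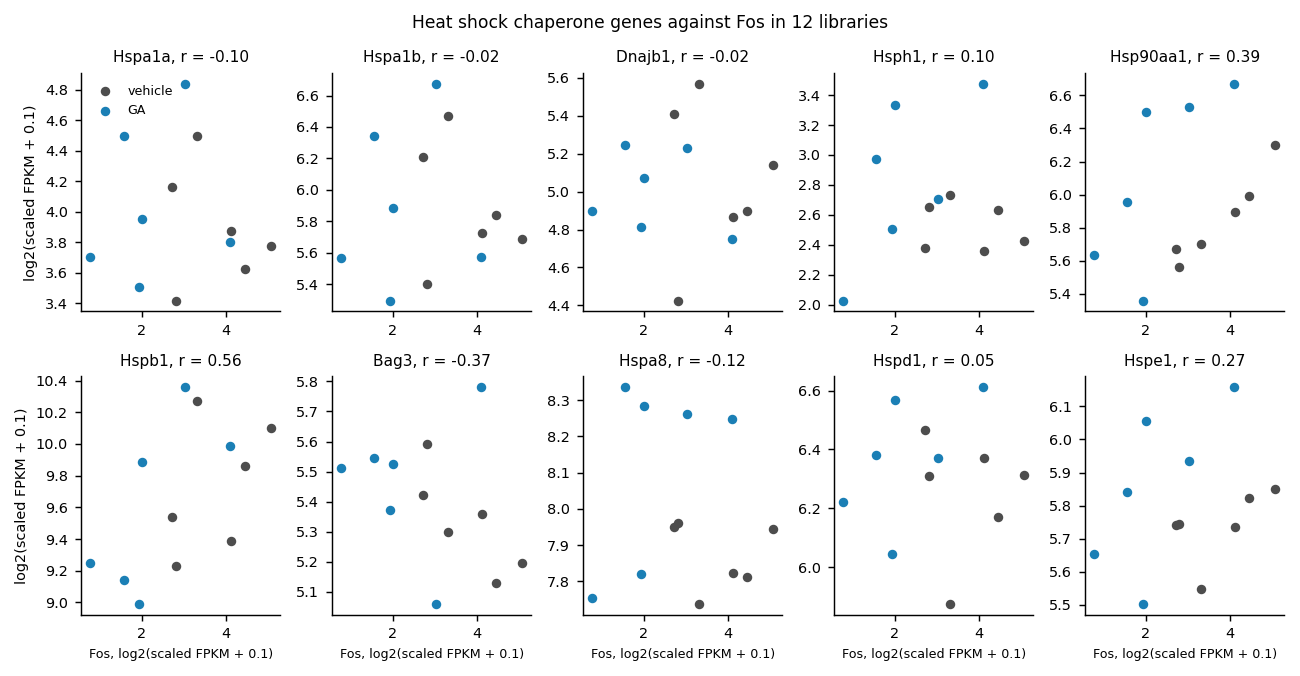
Log2(scaled FPKM + 0.1) of each member (vertical axes) against that of Fos (horizontal axes) in 6 vehicle (grey) and 6 GA (blue) libraries, with the pooled Pearson's r. Hsp90aa1 rises with Fos in vehicle libraries (r = 0.97). In GA libraries, mostly to the left, its r is 0.73 (adjusted p = 0.330, exact permutation test). Hspa1a and Hspa1b show pooled r of -0.10 and -0.02.

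Of the members, 8 fell into 2 sets by their correlated pairs. Of the 45 pairs, 9 had an adjusted p below 0.05 (permutation test, n = 12), all with positive r. Hspa1a, Hspa1b and Dnajb1 gave 3 of these pairs, with r of 0.96 for Hspa1a and Hspa1b (adjusted p = 0.00045, rho 0.91), 0.83 for Hspa1b and Dnajb1 (adjusted p = 0.00968, rho 0.85) and 0.79 for Hspa1a and Dnajb1 (adjusted p = 0.0155, rho 0.78). Within vehicle and GA libraries the r of Hspa1a and Hspa1b was 0.95 and 0.99. Dnajb1, which correlated with both, shares no 100-base stretch with either.

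The second set held the mitochondrial pair and their cytosolic companions. Hspd1 and Hspe1 had an r of 0.84 (adjusted p = 0.0096, rho 0.72), Hspa8 and Hspe1 0.79 (adjusted p = 0.0155), and Hspa8 and Hspd1 0.73 (adjusted p = 0.0361). Among inducible genes, Hsp90aa1 joined Hspe1 with r = 0.91 (adjusted p = 0.00045, rho 0.88) and Hsph1 joined Hspa8 (0.75) and Hspe1 (0.73). By Spearman's rho the adjusted p of Hspd1 with Hspe1 was 0.0676 and that of Hspa8 with Hspe1 0.0507. Within vehicle libraries Hspd1 and Hspe1 had r = 0.66 and rho = 0.086, Hspa8 and Hspe1 had r = 0.60, and Hsp90aa1 and Hspe1 had r = 0.61, against 0.98, 0.82 and 0.97 in GA libraries. The pairs of Hsph1 did not hold within vehicle libraries, where r was -0.44 with Hspa8 and -0.48 with Hspe1, and without GA libraries 2 and 3 the r with Hspe1 was 0.28. No pair joined Hspa1a, Hspa1b or Dnajb1 to the second set at an adjusted p below 0.05. Hspb1 and Bag3 joined neither set. The highest r of Hspb1 was 0.69 with Hsp90aa1 (adjusted p = 0.0703), and the lowest r of Bag3 was -0.43, with Hspb1. Without vehicle library 3 the number of pairs was 5, and without any other library it was 6 to 13.

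**Figure D4:**
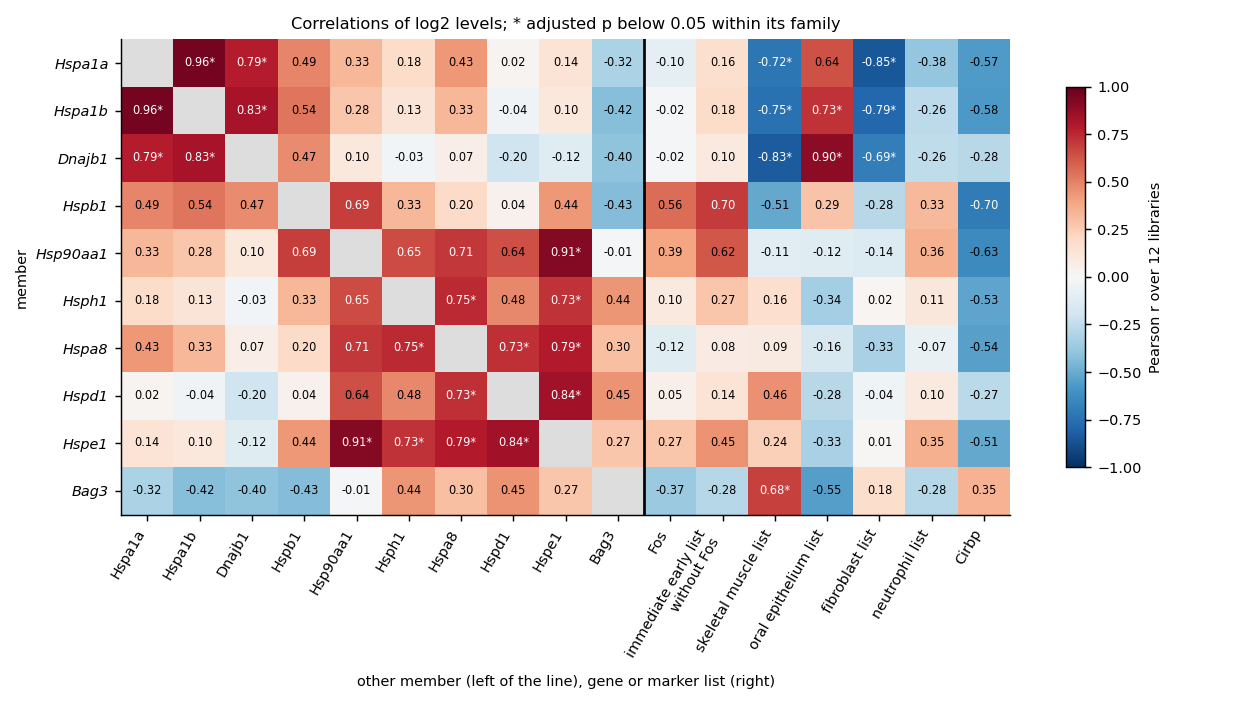
Pearson's r of log2 levels over 12 libraries, with members in rows and, in columns, the other members, Fos, marker lists and Cirbp. Red is positive and blue negative, and stars mark an adjusted p below 0.05 within the 45 pairs or within the 10 members for a column. Hspa1a, Hspa1b and Dnajb1 form a block that runs against the skeletal muscle and fibroblast columns, and Bag3 runs with muscle.

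The first set also followed the tissue make-up of the samples. Dnajb1 rose with the mean log2 level of 10 oral epithelium markers, such as the basal keratins Krt5 and Krt14, at r = 0.90 over 12 libraries (rho 0.94, permutation test, adjusted p = 0.0009 over the 10 members). The r was 0.98 in vehicle and 0.86 in GA libraries, 0.94 without vehicle library 3 and GA library 2, and 0.87 to 0.97 when each library was left out, with an adjusted p below 0.05 each time. Hspa1b had r = 0.73 with the same list (adjusted p = 0.0387), which was lost without any of 8 of the 12 libraries. Hspa1a had r = 0.64 (adjusted p = 0.0860). By Spearman's rho Hspa1b had 0.80 (permutation test, adjusted p = 0.014) and Hspa1a 0.76 (adjusted p = 0.020). In bulk tissue, fewer cells of a type and less RNA per cell cannot be told apart.

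Against skeletal muscle markers, such as the creatine kinase gene Ckm and the actin gene Acta1, 4 members passed. Dnajb1 (r = -0.83, adjusted p = 0.0099), Hspa1b (-0.75, 0.0249) and Hspa1a (-0.72, 0.0272) were lower, and Bag3 (0.68, 0.0372) was higher, where muscle RNA was higher (permutation test, adjusted over the 10 members). The signs were the same within each group, with r of -0.82 and -0.91 for Dnajb1 and 0.68 and 0.80 for Bag3 in vehicle and GA libraries. Vehicle library 3 had the most muscle RNA with the lowest Dnajb1 (21.4) and Hspa1a (10.6) and the second highest Bag3 (48.1), while vehicle library 1 had the least muscle RNA with the highest Dnajb1 (47.3). Without vehicle library 3, or without vehicle library 1, 0 members passed (lowest adjusted p = 0.0634 and 0.0502), and without GA library 6 only Dnajb1 did. With 1 library left out, Bag3 passed only without vehicle library 5 or GA library 1, 3 or 4, and was lost without any other library. Hspa8, Hspd1 and Hspe1 had r between 0.09 and 0.46 with muscle.

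Fibroblast markers, such as the collagen gene Col1a1, ran against the same 3 inducible genes, with r of -0.85 for Hspa1a (adjusted p = 0.0055), -0.79 for Hspa1b (0.0137) and -0.69 for Dnajb1 (0.0408). Hspa1a passed in each of the 12 sets with 1 library left out, and without GA library 6 it was the only member to do so. Hspa1b passed in every other set. Dnajb1 passed only without vehicle library 3, 4 or 5 or GA library 5. For neutrophil markers 0 of 10 members passed (lowest adjusted p = 0.599). With the muscle list as a covariate, 0 members were called between GA and vehicle. The muscle list itself had higher means with GA for 8 of its 11 tested genes (median log2 fold change 0.49), and the epithelium list lower for 8 of 10, with a median of -0.17. The mean log2 level of the muscle list was 6.36 (SD 1.085) with vehicle and 6.47 (SD 0.78) with GA. Lower means with GA were also seen for 8 of 8 tested neutrophil genes (median -0.82), 5 of 5 gland genes (median -1.44) and 6 of 7 fibroblast genes (median -0.19). The neutrophil list was highest in vehicle libraries 5 and 4 and GA library 2, with mean log2 levels of 3.96, 3.23 and 2.53, and Fos was at 4.46, 5.09 and 4.10 log2 in these libraries. Fos was also at 4.12 in vehicle library 2, where the neutrophil list was at 1.39. The relation of Fos to neutrophil markers was not tested. The part of tissue make-up in the differences between groups was not tested further.

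**Figure D5:**
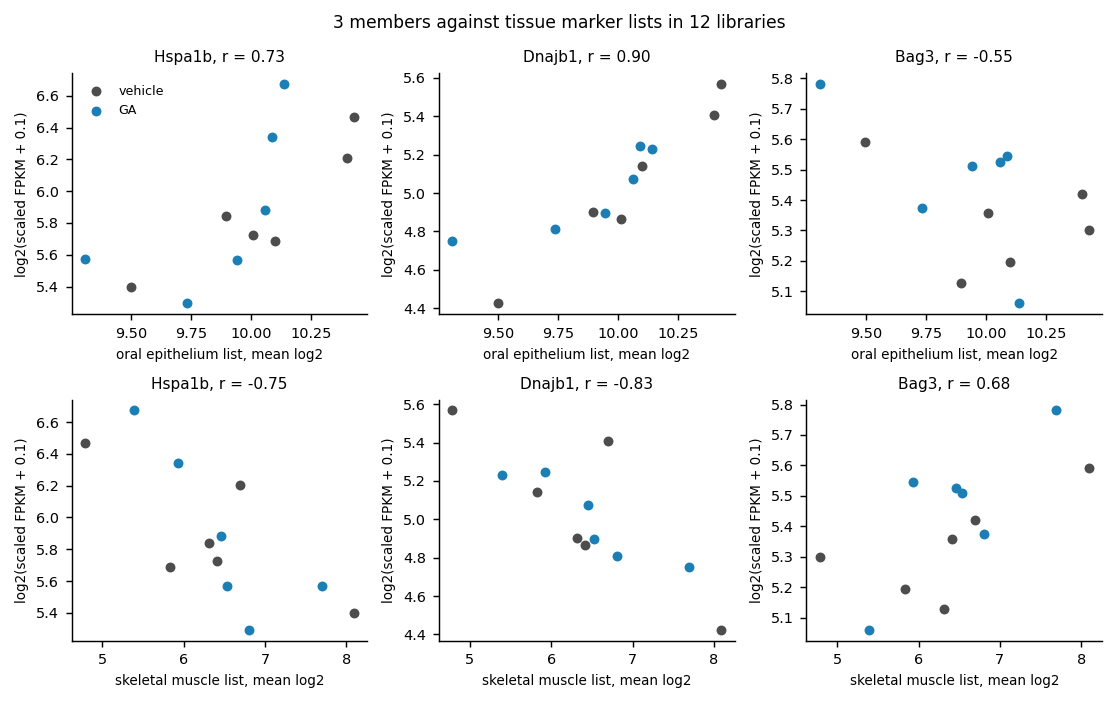
Log2(scaled FPKM + 0.1) of Hspa1b, Dnajb1 and Bag3 (vertical axes) against the mean log2 level of oral epithelium markers (top) and skeletal muscle markers (bottom) in 6 vehicle (grey) and 6 GA (blue) libraries. Dnajb1 rises with epithelium (r = 0.90) and falls with muscle (r = -0.83), and Bag3 rises with muscle (r = 0.68).

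The wider chaperone machinery was read from 8 lists with 70 genes, all of which were tested. Of these, 49 were higher and 21 lower with GA (median log2 fold change 0.068), and 0 were called. At an unadjusted p below 0.05 there was 1 of 70 (against 2.2% of all genes), Bag5, another exchange factor of HSP70. Bag5 averaged 9.35 ± 1.35 scaled FPKM with vehicle and 11 ± 1.18 with GA (log2 fold change 0.24, SE 0.11, exact permutation p = 0.0433, with 6 of 6 GA libraries over the median of vehicle), with an adjusted p of 0.9993 in limma. Of 9 HSP70 and HSP110 relatives 6 were higher (median 0.049), of 12 HSP40 genes 9 (median 0.096), and of 14 HSP90 genes and co-chaperones 13 (median 0.11). Hspa14, a ribosome-bound HSP70 relative, had the lowest log2 fold change of its list (-0.22, SE 0.13), and Hspa12b the highest (0.25, SE 0.395). Among HSP40 genes the largest were Dnajb5 (0.61, SE 0.36) and Dnaja4 (0.31, SE 0.26). In the HSP90 list they were Unc45b (0.47, SE 0.49) and Ahsa2 (0.38, SE 0.21). St13, in the list of Bag5, was at 0.20 (SE 0.12). The 8 subunits of the cytosolic chaperonin CCT were centred on 0 (3 higher, 5 lower, median -0.015), with Cct4 at 0.13 (SE 0.12) and Cct6a at -0.10 (SE 0.11). The mitochondrial protease Lonp1 had a log2 fold change of 0.22 (SE 0.10, exact permutation p = 0.0563) within a list of 6 with 2 higher and 4 lower. Clpp of that list was at 0.18 (SE 0.13). Of the 5 heat shock factors and regulators 4 were higher, with Hsf4 at 0.30 (SE 0.19) and Hsf2 at 0.28 (SE 0.23).

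The 6 other small heat shock protein genes were all higher with GA, with a median of 0.52 and 0 at an unadjusted p below 0.05. Hspb6 and Hspb7, small heat shock proteins of muscle, had log2 fold changes of 0.58 (SE 0.45) and 0.62 (SE 0.50). They varied from 24.1 to 184.9 and from 15 to 132.8 scaled FPKM over the 12 libraries. The muscle list of the same libraries had a median log2 fold change of 0.49, as given above. Its mean log2 level was 6.36 with vehicle and 6.47 with GA, and the relation of Hspb6 and Hspb7 to muscle was not tested. Of 16 immediate early genes 15 were lower with GA (median -0.23), and Fos and Dusp1 had an unadjusted p below 0.05. The study named both from these libraries, so the list is not independent evidence of that direction. Dusp1, a phosphatase that shuts off MAP kinases, averaged 32.9 ± 15.4 scaled FPKM with vehicle and 17.5 ± 3.98 with GA (log2 fold change -0.80, SE 0.28, exact permutation p = 0.0216, adjusted p = 0.9993 in limma). Ccn1, of the same list, had a log2 fold change of -0.81 (SE 0.61, exact permutation p = 0.255).

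Among 12027 other genes averaging 1 FPKM or more, the level of Trnp1 was most like the mean log2 level of Hspa1a and Hspa1b, at r = 0.97 over 12 libraries (rho 0.94), with 0.97 in both groups. Mark4 (0.94), Clk2 (0.94), Tfg (0.92) and Tfe3 (0.92) followed. Trnp1 ranged from 14.6 to 34.9 scaled FPKM. For the mean of Hspd1 and Hspe1 the most alike were Matr3 (0.92), Pycr3 (0.90), Mrpl40 (0.90), Riok2 (0.90) and Brat1 (0.88). These genes are the extremes of a search, and the libraries share tissue make-up, so no p is given.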

How the data were processed

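Bulk RNA-seq of 6 vehicle and 6 GA tongues was analysed, grouped by the treatment given in the labels. For the deposited FPKM values, the authors had mapped reads to mm10 (HISAT2) and counted the unique alignments of each gene (featureCounts). Tables held 55463 rows, of which 22965 (41.4%) had no gene name and were left out. Low values were whole multiples of 1 read once the GENCODE M21 exon length was shortened by 17.0 to 24.2 bases, with 97.5% to 98.2% of values of up to 8 reads whole within 0.02, which gave the read totals. Members had 592 or more reads in every library, so counting error was small beside the spread between libraries. FPKM were scaled by trimmed means of M values (factors 0.906 to 1.08), and genes averaging 0.1 FPKM or more were compared with limma 3.58.1 (trend) in R 4.3.3 on log2(scaled FPKM + 0.1). The study's methods use an edgeR test on read counts, and FPKM do not allow it, so its thresholds were kept and the test replaced. Exact two-sided permutation tests ran over the 12 libraries (smallest possible p = 0.00216), and correlations used 100000 permutations, or all orders within a group of 6, with Benjamini-Hochberg adjustment over the 10 members for each of 7 genes or lists and over the 45 pairs. Scripts were tested on simulated data.

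The members and lists were chosen with earlier results of these data known. Named genes were all members, Fos, Hsp90ab1, Cirbp and Rbm3, chaperone or immediate early genes with an unadjusted p below 0.05, the 2 largest fold changes in each list at a mean of at least 1 FPKM, and the 5 genes most correlated with either member pair. Replicate numbers were taken as names only, since deviations of same-numbered libraries correlated at -0.37 to 0.079. Alternatives covered the pseudocount, scaling, filter, limma options, covariates for Y-linked reads, muscle and neutrophils, a replicate block, limma-voom on recovered reads, and subsets of libraries. Promoter sequences came from RefSeq (GRCm38.p6).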

Additional observations from a re-analysis of the deposited data

How the results depend on the processing

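Across 376 alternative values, 356 kept their direction and side of the threshold. Under any of the 28 alternatives to the comparison of GA with vehicle 0 members were called. These included unadjusted p below 0.1 with the same fold change limit of 0.58, which 329 of the 16847 genes passed. For the members a looser p could not change the count. Their largest log2 fold change in any setting was 0.47, for Hsph1 without GA library 5, so the fold change limit alone kept the count at 0. The replicate numbers do not pair the libraries (0 of 6 correlations over 0.1). With the replicate block 0 members were called, and 250 genes had an unadjusted p below 0.05 against 371 without it. With the muscle covariate 754 did. Hspa1b, at 8.3e-05, changed sign with no scaling (-0.0020), median ratio scaling (-0.021), the Y-linked read covariate (-0.20), the neutrophil covariate (-0.098), limma-voom on recovered reads (-0.0078), without the 3 gland libraries (-0.070) and with only libraries without Y-linked reads (-0.017), and it ran from -0.16 to 0.12 with 1 library left out. Hspb1 turned to 0.027 with only libraries without Y-linked reads. With 1 library left out, Dnajb1 ran from -0.17 to 0.053, Hspa1a from -0.00050 (without GA library 6) to 0.28, Hspb1 from -0.28 (without GA library 6) to -0.0053 (without GA library 1), Hsph1 from 0.18 (without GA library 2) to 0.47 (without GA library 5), Bag3 from 0.071 (without GA library 2) to 0.21 (without GA library 6), Hspd1 from 0.040 (without vehicle library 1) to 0.18 (without GA library 1), Hspe1 from 0.057 (without GA library 2) to 0.19 (without GA library 1), and the difference of Hspa1a minus Hspa8 from -0.22 to 0.058. Members correlated with Fos numbered 1, Hsp90aa1, with values centred on the group mean, and 0 under every other alternative. The median log2 fold change of all genes was 0.0065, and -0.014 with median ratio scaling. Among the members the 95% interval was widest for Hspb1 (-0.73 to 0.47) and narrowest for Hspe1 (-0.13 to 0.37).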

Other observations

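The level of Hspa1b relative to Hspa1a was lower with GA, a comparison made after the values were seen. The ratio was 3.93, 3.60, 3.95, 3.77, 4.65 and 4.12 in vehicle libraries 1 to 6 and 3.46, 3.40, 3.81, 3.59, 3.64 and 3.57 in GA libraries 1 to 6. The log2 ratio differed by -0.16 (SE 0.057, exact permutation test, two-sided p = 0.0152, with 6 of 6 GA libraries under the median of vehicle), and the p without 1 library ran from 0.00649 to 0.0325. The ranges overlap, and much of the sequence of the 2 genes is shared.

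Cirbp, an RNA-binding protein gene that cooling raises and heat lowers in cultured cells, had its lowest value of the 12 libraries (6.94 scaled FPKM) in GA library 6, where Hspa1a, Hspa1b and Hspb1 were highest, and its highest (28.2) in GA library 5, where Hsph1 was lowest. Its correlation with the members was computed after these values were seen. Pearson's r was negative for 9 of 10 members, and 0 of 10 had an adjusted p below 0.05 (permutation test, n = 12, lowest adjusted p = 0.0581, for Hspb1 with r = -0.70 and rho = -0.65). Without GA libraries 5 and 6, the farthest from the median of Cirbp, r was -0.12 for Hspa1a, -0.20 for Hspa1b and -0.61 for Hspb1. Without GA library 4, 5 members had an adjusted p below 0.05 (lowest 0.0480), and without vehicle library 4 Hspb1 did (0.0150). Cirbp did not differ between groups beyond its spread (log2 fold change -0.13, SE 0.27), nor did Rbm3, another cold-inducible gene (0.077, SE 0.17). Rbm3 was placed otherwise than Cirbp. It was lowest in vehicle library 3 (30.7 scaled FPKM), where Hspa1a and Dnajb1 were also lowest. Its highest value (63.0) was in GA library 4, where Hspa1a (22.5) and Hspa1b (80.9) were above their vehicle medians. The correlation of Rbm3 with the members was not tested.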
